A study of Mus musculus with 6 samples.

Results

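The keratin gene family was examined in mammary gland RNA that was collected at lactation day 2 from mice with and without an MMTV-FOXC1 transgene. Members were all rows of the deposited table named Krt followed by a number, without the keratin-associated Krtap genes. This gave 51 of the 21950 genes in the table. Both groups were FVB/NJ mice at postnatal week 11. Wildtype mice carried no transgene, and transgenic mice carried a Myc-tagged human FOXC1 cDNA driven by the mouse mammary tumor virus promoter/enhancer, which is induced by lactogenic hormones and which the study located in luminal rather than myoepithelial cells. RNA came from slides of mammary tissue that the labels call epithelial cells. Which transgenic line gave the sequenced tissue, and whether the samples of a genotype came from separate animals, is not given in the sources used here.

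Keratins build the intermediate filaments of epithelial cells. An acidic type I keratin pairs with a basic type II keratin, and the pair made differs with the kind of epithelium. In the mammary gland, Krt8 pairs with Krt18 and Krt19 in luminal cells, which make milk, while Krt5 pairs with Krt14 in the basal layer of myoepithelial cells. Other keratins belong mainly to skin, oral mucosa, the root sheath of hair follicles, the hair shaft and the nail, and they can mark skin or follicle tissue when found in a gland. Filaments are anchored at desmosomes, the junctions that hold neighboring epithelial cells together.

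The labels list 3 samples of each genotype, but the 3 columns of a genotype differed by no more than the sampling noise of reads drawn from 1 library. The chi-square of reads per degree of freedom was 1.02 over 5835 genes in wildtype and 1.05 over 7490 genes in transgenic mice, and each genotype was therefore counted as 1 sample. No p-value is given for any comparison. A depth of 3492861 to 3496335 reads per wildtype column and 11770867 to 11775866 reads per transgenic column was recovered from the values, so that the transgenic library was 3.37 times as deep. Transcripts of the milk protein list took 43.0% of wildtype reads and 0.360% of transgenic reads (15 genes), and the median of all 13118 genes kept was 1.06 higher on the log2 scale in the transgenic library. The endogenous Foxc1 gene was at 2.53, 1.66 and 2.90 RPKM (reads scaled to exonic length and to the mapped reads of the library) in the wildtype columns and at 9.45, 9.56 and 8.21 RPKM in the transgenic columns. The transgene is human and the table holds the mouse gene, so these values check the labels only in part.

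Keratin transcripts as a whole were more abundant in the transgenic library. Their summed level was 75.8, 79.5 and 75.1 RPKM in the 3 wildtype columns and 397, 401 and 406 RPKM in the 3 transgenic columns, a 5.22-fold difference of the means. As a share of reads, the family took 0.0148% in wildtype (1547 reads, 95% Wilson interval 0.0140% to 0.0155%) and 0.0734% in transgenic mice (25943 reads, 0.0726% to 0.0743%). These intervals, like all others given here, cover counting error only, since reads without molecular identifiers are not independent molecules. They compare the libraries, not the conditions. Of the reads outside the milk protein list, the family took 0.0259% in wildtype and 0.0737% in transgenic mice, so that the gap between the libraries was smaller on that scale. In bulk tissue, fewer cells of a type and less RNA per cell cannot be told apart.

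The genes lie in 2 clusters in GRCm38, 27 on chromosome 11 (99232761 to 100269871) and 24 on chromosome 15 (101347444 to 102032027). The chromosome 11 cluster spans 1037 kb and holds type I genes, and the chromosome 15 cluster spans 685 kb and holds the type II genes together with the type I gene Krt18. On chromosome 11, Krt23 stood beside Krt39, which had no reads in either library, and on chromosome 15 the genes with no reads lay between Krt71 and Krt4, themselves near 0. On chromosome 15, Krt8 and Krt18 lie next to each other at the end of the cluster, and these were the keratins with the highest transgenic levels. Krt19, the third in that order, lies on chromosome 11 next to Krt15, whose level was lower in the transgenic library.

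**Figure D1:**
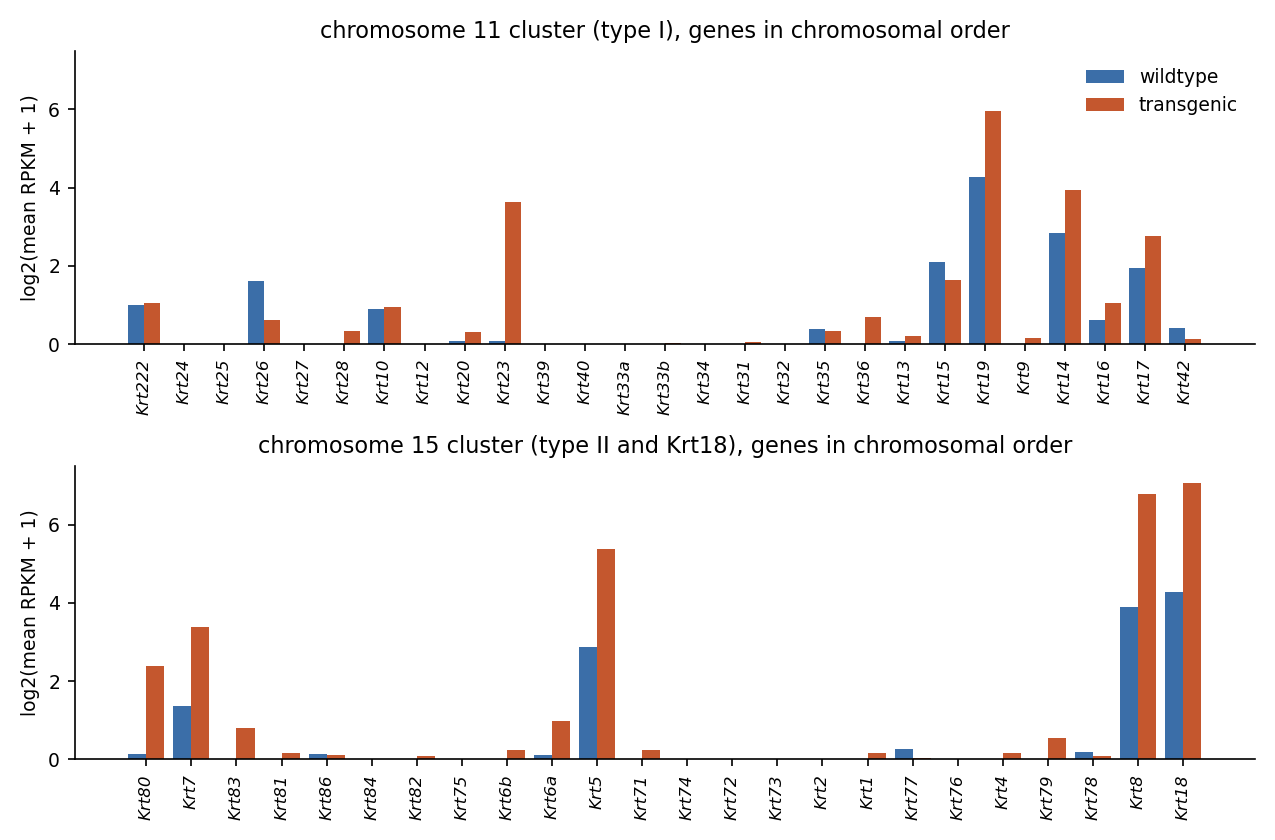
Mean level of each keratin on the log2(RPKM + 1) scale (vertical axis) in the wildtype and transgenic libraries, with genes in chromosomal order along the horizontal axis, chromosome 11 above and chromosome 15 below. Bars are the mean of 3 columns of 1 library each. The tallest bars are Krt8 and Krt18 on chromosome 15 and Krt19 on chromosome 11, and 14 keratins have no bar in either library.

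Of the 51 keratins, 11 averaged 2 RPKM or more in the wildtype or the transgenic library and were kept for the comparison. A gene was called by size alone, when its log2 of RPKM + 1 differed by more than 2 between genotypes. By this rule 6 of the 11 keratins kept were higher in the transgenic library (Krt23, Krt8, Krt18, Krt5, Krt80 and Krt7), where 16.1% of all genes kept were, and 0 were lower, where 1.23% of all genes kept were. With no minimum level the counts were again 6 and 0, beside 11.5% and 0.879% of all genes with reads. The median change of the 11 keratins was 2.01. Under size factors from the median of ratios, which place the median of all genes kept near 0 (0.036) after moving it by 1.24 (log2), the median of the 11 was 1.06. Krt23 alone then passed the rule, 1 higher against a background of 4.17%, and 0 were lower against 3.66%. Another scale used the epithelial reference list, 14 genes of epithelial cells other than keratins, whose median change was 0.55. Centered on that list, 3 keratins were higher (Krt23, Krt8 and Krt18) with a background of 8.36%, 0 were lower with a background of 2.04%, and the median was 1.57.

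All 3 transgenic columns lay above all 3 wildtype columns for 9 of the 11 keratins, as for 83.6% of all genes kept. For Krt26 all wildtype columns lay above the transgenic ones, as for 9.67% of genes, and the columns of Krt15 overlapped. Counting any gene with reads, the mean level of 30 keratins was higher and that of 7 was lower in the transgenic library, beside 85.4% and 14.6% of the 18308 genes with reads. The share of keratins with a higher mean was therefore close to that of other genes.

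**Figure D2:**
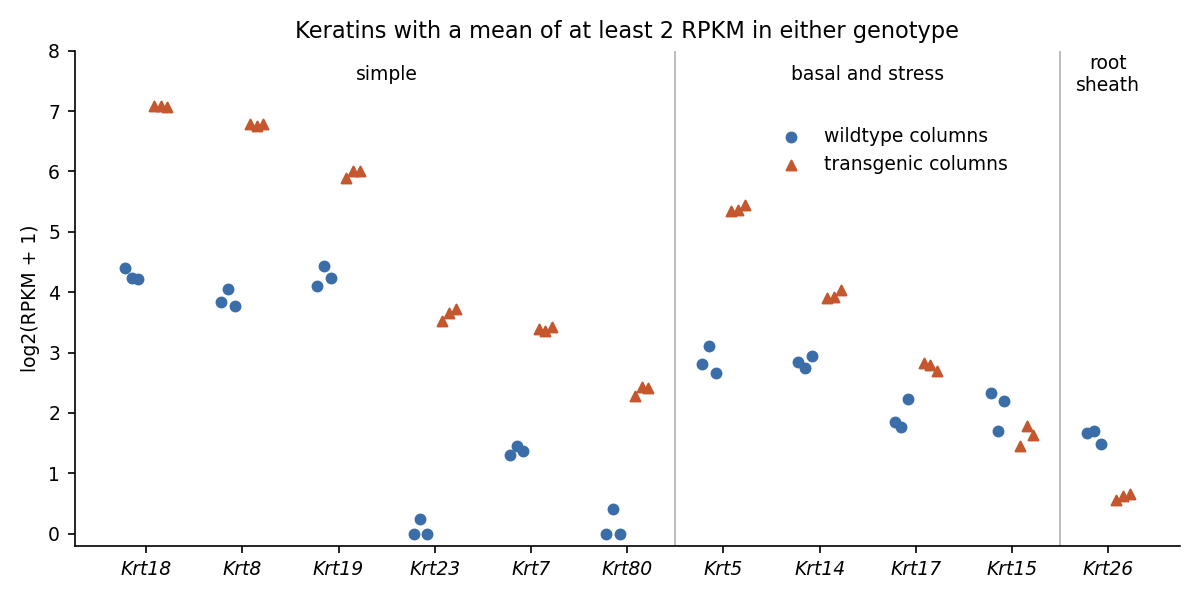
Level of the 11 keratins kept, on the log2(RPKM + 1) scale, in each of the 3 wildtype and 3 transgenic columns, grouped as simple, basal and stress, and root sheath keratins. Each point is 1 column, and columns of a genotype are reads of 1 library. The transgenic columns of all 6 simple keratins lie above the wildtype ones, the columns of Krt15 overlap and those of Krt26 lie in the opposite order.

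Short sequences upstream of 4 keratins that passed the size rule are shown because they hold a motif in common. In windows of 250 bases before the transcript start (RefSeq, GRCm38.p6), 35 of the 51 keratins had an entry, with 36 windows. The letters CAGGTG, an E-box searched on both strands, occurred in 36.1% of keratin windows and in 17.2% of all 32851 windows. Among the keratins kept, the windows of Krt18, Krt23, Krt7 and Krt5 held it and those of Krt14 and Krt26 did not, while Krt15, Krt17, Krt19 and Krt80 had no entry. Windows of keratins that were not kept held it too (Krt10, Krt39, Krt40, Krt71, Krt72, Krt77, Krt78 and Krt79). Of these, Krt39, Krt40 and Krt72 had no reads in either library. The mean level of Krt77 and Krt78 was lower in the transgenic library, and that of Krt10, Krt71 and Krt79 was higher. Each line gives 30 bases from 5′ to 3′ on the strand of the gene, with the match to CAGGTG or to its reverse complement CACCTG in capitals.
Krt18: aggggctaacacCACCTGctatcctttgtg
Krt23: agatctgctaccCACCTGgtggcctgggcc
Krt7: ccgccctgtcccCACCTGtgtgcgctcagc
Krt5: cacaccactgtgCAGGTGtgctgggtgagc

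The Krt18 stretch lies on the plus strand at chr15:102027990-102028019, with its match 214 to 209 bases before the start. That of Krt23 is at chr11:99493335-99493364 on the minus strand (232 to 227 bases before the start), that of Krt7 at chr15:101412347-101412376 on the plus strand (44 to 39 bases), and that of Krt5 at chr15:101713016-101713045 on the minus strand (128 to 123 bases). The motifs were chosen with the values known, and a match is a description of these letters, not of binding. Of the other motifs searched on both strands, TATAAA occurred in 47.2% of keratin windows and 12.4% of all windows. The forkhead letters GTAAACA occurred in 0 of the 36 keratin windows and in 3.17% of all windows, and the ETS letters CCGGAAG in 0 and 6.91%. The GC box GGGCGG occurred in 2 keratin windows and 32.7% of all windows, and the AP-1 letters TGANTCA in 2 keratin windows, both of Krt13, and 6.75% of all windows.

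Simple keratins, listed here as 7 genes mainly of single-layered epithelium with Krt80 among them, were the most abundant group. They were also the group with the highest median change. All 7 had reads in both libraries, 6 were kept and 5 of these were higher by the size rule, where 16.1% of all genes kept were. With size factors 1 of the 6 was higher, beside 4.17% of all genes kept. Centered on the epithelial reference list 3 were, beside 8.36%. Their median change was 2.51 on the log2 scale with library sizes, 1.63 with size factors and 2.10 when centered on the epithelial reference list. The summed level of the group was 49.9 to 56.2 RPKM in the wildtype columns and 326 to 332 RPKM in the transgenic columns, a 6.29-fold difference.

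Krt18, the type I partner of Krt8, was at 20.04, 17.8 and 17.6 RPKM in the wildtype columns and at 135, 134 and 132 RPKM in the transgenic columns. The columns did not overlap, and Krt18 had the highest keratin level in both libraries, although Krt19 stood within counting error of it in wildtype. It stood at rank 1169 of all genes in wildtype and at rank 178 in transgenic mice. By its 271 and 6621 reads the level was 7.25-fold higher in the transgenic library (95% Clopper-Pearson interval 6.42 to 8.22). The log2 change was 2.79, and 1.59 with size factors.

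Krt8, the type II keratin of luminal cells, was at 13.3, 15.7 and 12.7 RPKM in wildtype and at 109, 107 and 110 RPKM in transgenic columns. All transgenic columns were above all wildtype columns, a 7.82-fold difference (6.91 to 8.88) from 263 and 6930 reads. The rank of Krt8 was 1753 in the wildtype library and 230 in the transgenic one, and its log2 change of 2.88 was the second highest of the 11 keratins kept, 1.69 with size factors. Of the 50-base stretches of Krt8 exons, 29.7% also occur in other genes, among them the pseudogene Krt8-ps, so that reads could have been split between them.

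Krt19, a small type I keratin of luminal and ductal cells, did not pass the size rule. Its level was 16.2, 20.5 and 17.9 RPKM in wildtype and 58.1, 63.4 and 63.4 RPKM in transgenic columns. The columns were separate, with a 3.39-fold difference (3.04 to 3.79, 354 and 4039 reads). The interval lay below those of Krt8 and Krt18. On the log2 scale the change was 1.71 with library sizes and 0.51 with size factors.

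Krt23, a type I keratin, had the largest change of the 11. It was at 0, 0.183 and 0 RPKM in wildtype and at 10.5, 11.6 and 12.3 RPKM in transgenic columns. The count of 1 wildtype read stood against 633 transgenic reads, a ratio of 188 with a counting interval of 33.6 to 7432. Its log2 change was 3.55 with library sizes, 2.95 with size factors and 3.27 centered on the epithelial reference list, and it passed the size rule under each of these scalings. Krt23 is in GRCm38 at chromosome 11, 99477974 to 99493137, on the minus strand.

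Krt7, a type II keratin of ducts, was at 1.46, 1.75 and 1.58 RPKM in wildtype and at 9.44, 9.27 and 9.67 RPKM in transgenic columns. The groups did not overlap, and 115 and 2299 reads gave a 5.93-fold difference (4.92 to 7.22). Its log2 change of 2.01 lay just past the threshold. Leaving out wildtype column 1 or transgenic column 3 took it under the threshold, and the values with 1 column left out ran from 1.97 to 2.05. Krt80, a type II keratin on chromosome 15, was at 0, 0.322 and 0 RPKM in wildtype and at 3.88, 4.41 and 4.31 RPKM in transgenic columns. Its 2 wildtype and 263 transgenic reads gave a ratio of 39.0 (10.7 to 324) and a log2 change of 2.23. Krt20, a type I keratin of intestinal epithelium, had 1 wildtype and 16 transgenic reads and stayed under the minimum level, with a ratio of 4.75 whose interval (0.738 to 199) included 1.

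Basal and stress keratins had a lower median change than simple keratins. Of 7 members, 4 were kept and only Krt5 was higher by the size rule, where 16.1% of all genes kept were. With size factors or centered on the epithelial reference list 0 were, beside 4.17% and 8.36% of all genes kept. The median change of the 4 was 0.96 with library sizes and -0.09 with size factors, beside 1.06 and 0.036 over all genes kept, and 0.47 centered on the epithelial reference list. Their summed level was 18.2 to 19.97 RPKM in wildtype and 64.2 to 67.6 RPKM in transgenic columns, a 3.39-fold difference. The basal and myoepithelial marker list without keratins had a median of 1.67 with library sizes and 0.49 with size factors. With library sizes 2 of its 12 genes were higher by the rule, Cdh3 (P-cadherin, 2.31) and Lama3 (a chain of laminin, 2.27). That was close to the 16.1% of all genes kept that were higher. With size factors 0 of the 12 passed, where 4.17% of all genes kept were higher.

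Krt5, the type II keratin of basal cells, was at 6.01, 7.57 and 5.36 RPKM in wildtype and at 39.6, 39.9 and 42.7 RPKM in transgenic columns. The transgenic columns all lay above the wildtype ones, a 6.45-fold difference (5.46 to 7.67, 145 and 3150 reads), and the log2 change was 2.51. Krt14, its type I partner, was at 6.19, 5.69 and 6.68 RPKM in wildtype and at 14.0, 14.2 and 15.4 RPKM in transgenic columns. The difference of Krt14 was 2.34-fold (1.93 to 2.87), and its interval lay below that of Krt5. On the log2 scale the change of Krt14 was 1.11 with library sizes and near 0 with size factors (-0.0066), close to the median of all genes kept on both scales. Reads could have been split here too, since 12.2% of the 50-base stretches of Krt5 occur in other genes, among them Krt6a, and 13.9% of those of Krt14 occur in Krt16 or Krt17.

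Krt17, a type I keratin of follicles and injured epithelium, was at 2.58, 2.40 and 3.69 RPKM in wildtype and at 6.13, 5.92 and 5.48 RPKM in transgenic columns. The columns were separate, with a 2.02-fold difference (1.48 to 2.81, 47 and 320 reads). Its log2 change was 0.81 with library sizes and -0.18 with size factors, with opposite signs. Krt15, a type I keratin of basal and follicle stem cells, was at 4.05, 2.27 and 3.56 RPKM in wildtype and at 1.73, 2.45 and 2.11 RPKM in transgenic columns. The columns of Krt15 overlapped, although the 61 and 131 reads summed over columns gave a ratio of 0.637 (0.467 to 0.878). Its log2 change was -0.47, and -1.35 with size factors, and it did not pass the rule on either scale.

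The other 3 members of this group are keratins of stressed or wounded epithelium and stayed under 2 RPKM. Krt16 had 9 and 60 reads, a ratio of 1.98 with an interval of 0.976 to 4.54. Krt6a had 2 wildtype and 79 transgenic reads, a ratio of 11.7 (3.14 to 98.5), and Krt6b had 0 and 15 reads, at least 1.48-fold higher against a floor of 3 reads in the wildtype library. All of them share many of their 50-base stretches with other genes, 37.6% for Krt16, 57.2% for Krt6a and 50.1% for Krt6b, so their levels are uncertain.

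Keratins of skin, mucosa, hair and nail were near the limit of detection in both libraries. These 36 genes summed to 4.07 RPKM in wildtype and 4.999 RPKM in the transgenic library, with 127 and 360 reads, and only Krt26 was kept. No reads were found for 14 of the 36 (Krt2, Krt12, Krt24, Krt25, Krt27, Krt32, Krt33a, Krt34, Krt39, Krt40, Krt72, Krt73, Krt74 and Krt76). For these 14 a floor of 3 reads per library allowed up to 0.110 to 0.217 RPKM in wildtype and 0.0325 to 0.0643 RPKM in transgenic mice, depending on length. Another 14 had reads in the deeper transgenic library only, and 0 had reads in wildtype only. Krt1, the type II keratin of the upper epidermis, had 0 wildtype and 10 transgenic reads. Its type I partner Krt10 had 19 and 68 reads, a ratio of 1.06 (0.631 to 1.87).

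Krt26, a type I keratin of the inner root sheath, was the exception among them. It was at 2.18, 2.26 and 1.80 RPKM in wildtype and at 0.463, 0.533 and 0.579 RPKM in transgenic columns. All wildtype columns were above all transgenic columns, and the transgenic level was 0.252 of the wildtype level (0.180 to 0.353, 80 and 68 reads). The log2 change of -1.01 did not pass the size rule, nor did -1.64 with size factors. All other root sheath keratins had 0 wildtype reads. Krt28 had 15 transgenic reads, at least 1.48-fold higher against the floor, and Krt71 had 14, at least 1.38-fold higher. Exons of other annotated genes overlapped 0% of the exonic length of Krt26. The strand setting of the counting is not given in the sources used here. Reads from an unannotated overlapping or antisense transcript could therefore not be told apart from those of Krt26, and the presence of such a transcript was not tested.

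Among keratins of the hair shaft and nail, Krt36 had 0 and 37 reads, at least 3.66-fold higher in the transgenic library against the floor. Krt83 had 0 and 24 reads (at least 2.37-fold), and Krt35 had 8 and 23 reads with a ratio of 0.853 (0.368 to 2.21). Krt79, a keratin of sebaceous ducts, had 0 and 34 reads, at least 3.36-fold higher. Krt77, of sweat gland ducts and skin, was lower in the transgenic library, with 6 and 2 reads and a ratio of 0.0989 (0.0098 to 0.553). Krt9, of palm and sole skin, had 0 and 10 reads, and Krt13, of mucosa, had 1 and 10. Krt222, which is outside these groups, had 35 and 127 reads and a ratio of 1.08 (0.736 to 1.61). Of the 56 rows of keratin-associated Krtap genes, which encode matrix proteins of the hair shaft, 53 had no reads and the highest level was 0.282 RPKM.

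Relative to each other, keratins can be compared within a library, where depth and scaling cancel. The plot of the make-up of keratin transcripts shows the share of each in the summed keratin RPKM. Simple keratins made up 68.2% of the sum in wildtype and 82.2% in transgenic mice, and basal and stress keratins 25.2% and 16.3%. The ratio of simple to basal keratins was 2.58, 3.08 and 2.50 in the wildtype columns and 5.08, 5.12 and 4.92 in the transgenic columns. Columns of a genotype are reads of 1 library, so their spread shows little beyond counting error. Skin and hair keratins made up 5.30% and 1.25%.

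**Figure D3:**
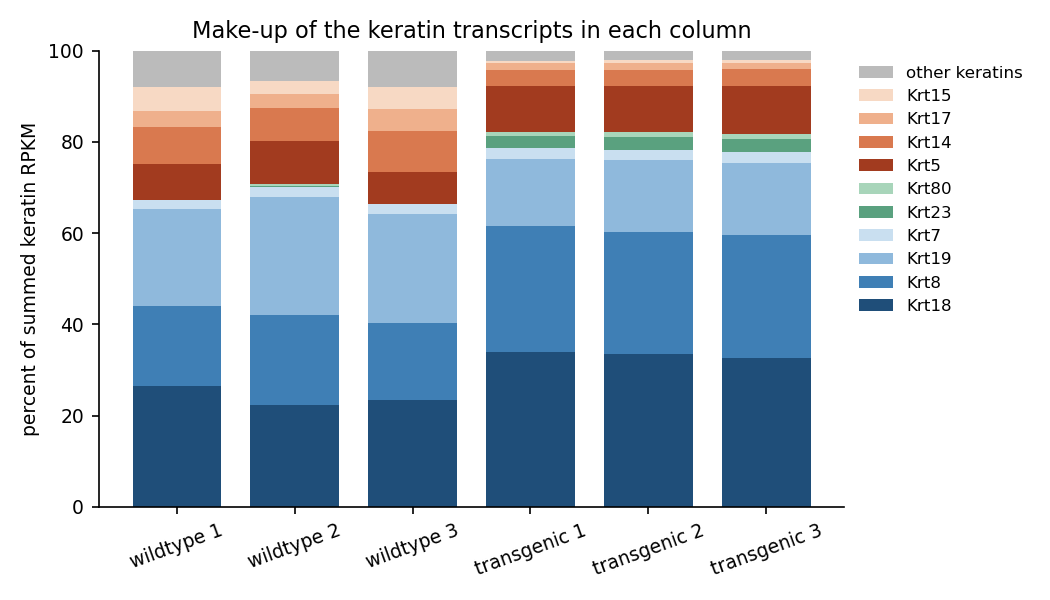
Percent of the summed keratin RPKM taken by each keratin in the 3 wildtype and 3 transgenic columns, with simple keratins in blue and green, basal keratins in red to pale orange and the rest in grey. Krt18 and Krt8 take a larger part of the transgenic bars (33.4% and 27.1% on average) than of the wildtype bars (24.0% and 18.1%), and Krt14, Krt17, Krt15 and the rest a smaller one.

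Within the simple group, the share of Krt18 was 24.0% of the wildtype sum and 33.4% of the transgenic sum, that of Krt8 18.1% and 27.1%, and that of Krt19 23.7% and 15.4%. Krt23 went from 0.0793% to 2.86%. Within the basal group, the share of Krt5 was 8.22% and 10.2%, while that of Krt14 was 8.06% and 3.61% and that of Krt15 4.29% and 0.523%. Sums by filament type differed as well. Type I keratins had 2.42 times the summed RPKM of type II keratins in wildtype (2.58, 2.06 and 2.72 by column) and 1.41 times in transgenic mice (1.39, 1.45 and 1.40). These columns too are reads of 1 library per genotype, and protein was not measured.

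Partner ratios differed from one pair to another. The ratio of Krt8 to Krt18 was 0.753 in the wildtype library (0.633 to 0.895) and 0.812 in the transgenic one (0.785 to 0.840), and these intervals overlapped. The ratio of Krt5 to Krt14 was 1.02 (0.793 to 1.32) and 2.81 (2.61 to 3.03), and these did not overlap. A difference in the ratio of Krt8 to Krt18 was thus not detectable at this depth, while that of Krt5 to Krt14 was larger than counting error. The ratio of Krt8 to Krt19 was 0.764 (0.648 to 0.898) in wildtype and 1.76 (1.70 to 1.83) in transgenic mice, and that of Krt18 to Krt19 was 1.01 (0.863 to 1.19) and 2.17 (2.09 to 2.26). The order of Krt8 and Krt19 was therefore reversed between the libraries.

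Luminal and basal keratins were also set against each other. The ratio of Krt8 to Krt14 was 2.25 (1.80 to 2.82) in wildtype and 7.4995 (6.995 to 8.05) in transgenic mice, with separate intervals. With Krt5 in place of Krt14 the ratio was 2.20 (1.79 to 2.71) and 2.67 (2.56 to 2.78), and the intervals overlapped. A difference in the balance of luminal to basal keratin was thus seen with Krt14 and was not detectable with Krt5 at this depth. The ratio of Krt17 to Krt14 was 0.467 (0.325 to 0.662) and 0.403 (0.354 to 0.458), and that of Krt15 to Krt14 was 0.532 (0.384 to 0.733) and 0.145 (0.1196 to 0.174). Krt7 stood at 0.115 of Krt8 (0.0913 to 0.143) in wildtype and at 0.0870 (0.0830 to 0.0913) in transgenic mice.

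**Figure D4:**
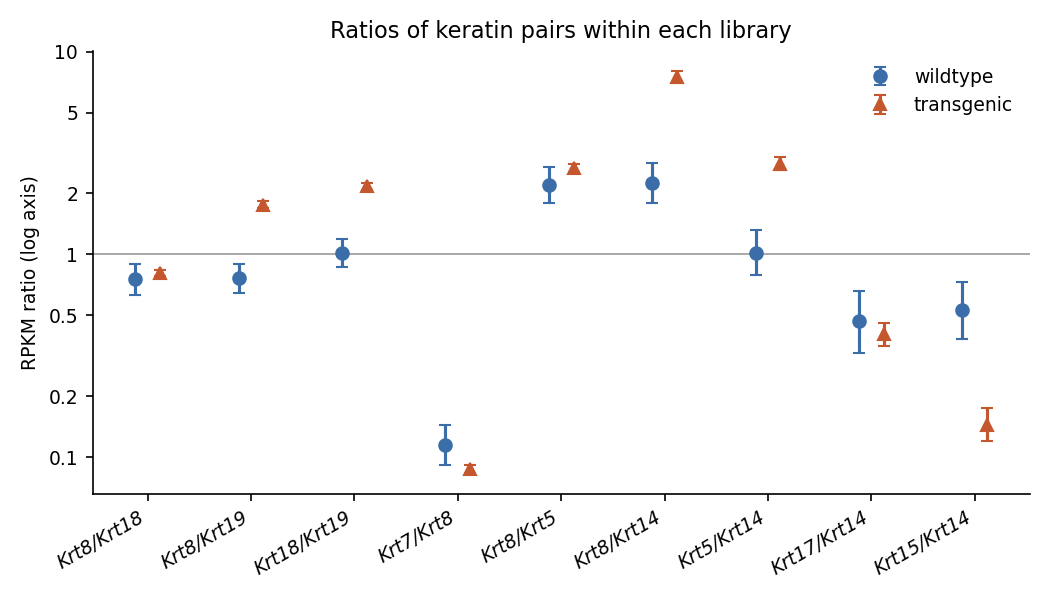
Ratio of RPKM between pairs of keratins within the wildtype and the transgenic library, on a log axis. Points are ratios of reads summed over 3 columns and corrected for length, and bars are 95% Clopper-Pearson intervals for counting error. Intervals of Krt8 to Krt18, Krt8 to Krt5 and Krt17 to Krt14 overlap between the libraries, and those of Krt8 to Krt14, Krt5 to Krt14 and Krt15 to Krt14 do not.

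Genes that anchor or accompany keratin filaments were examined as listed groups. Of 23 desmosome and keratin linker genes in the table, 16 were kept, 6 were higher and 0 lower by the size rule, beside 16.1% and 1.23% of all genes kept, and the median change was 1.81. The largest were Pkp1 (plakophilin 1, 0.323 RPKM against 20.6 RPKM in the transgenic library, log2 change 4.03), Dsp (desmoplakin, which ties keratins to the desmosome, 2.84), Dsc2 (desmocollin 2, 2.51) and Plec (plectin, a cross-linker of filaments, 2.48). With size factors Pkp1 alone passed, beside 4.17% of all genes kept, and the list's median was 0.73. Centered on the desmosome list, a shift of 1.82, the median of the 11 keratins was 0.60, Krt8 and Krt18 were 1.12 and 1.02 higher, Krt19 was at -0.06 and Krt23 alone passed the rule. Of the other intermediate filaments, 0 of 7 genes kept passed the rule on either scale, where 16.1% and 4.17% of all genes kept were higher. Their median change was 0.76 with library sizes and -0.36 with size factors, so that its direction depended on the scaling. Vim (vimentin, the filament of mesenchymal cells) was at 86.4 RPKM against 94.1 RPKM in the transgenic library, a log2 change of 0.12 with library sizes and -1.10 with size factors. The change of Lmnb1 (lamin B1) was 1.62 and 0.58 on these scales, and that of Nes (nestin) 1.28 and 0.30.

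**Figure D5:**
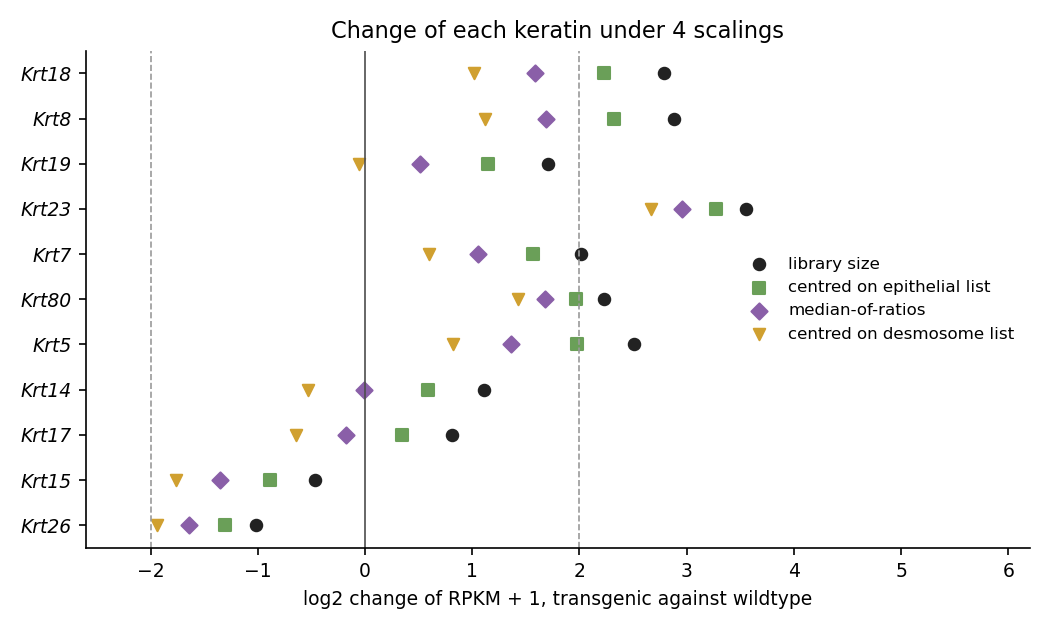
Change of each of the 11 keratins kept on the log2 scale of RPKM + 1, transgenic against wildtype, with library sizes, with median-of-ratios size factors, and centered on the epithelial reference list and on the desmosome list. Dashed lines mark the size rule of 2 in either direction. Krt23 lies past the line under all 4 scalings, Krt14, Krt17 and Krt19 lie on both sides of 0 and Krt15 and Krt26 lie below 0 under all 4.

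Markers of skin and hair were mixed in level. Of 20 cornified envelope genes, 3 were kept and 0 passed the rule with library sizes (Sfn 1.90, Sbsn 1.85 and Tgm1, a transglutaminase that cross-links the envelope, -1.82). Of all genes kept, 16.1% were higher and 1.23% lower. Tgm1 was past the rule, 1 lower, with size factors (-2.81, beside 3.66% of all genes kept) and on the epithelial scale (-2.29, beside 2.04%). The list had a summed level of 17.8 to 18.2 RPKM in wildtype and 32.0 to 33.6 RPKM in transgenic columns. In both libraries 7 of the 20 were at 0, among them Ivl (involucrin), Flg2 and Casp14. The rest of those not kept were under 1 RPKM in each library. Dmkn was at 0 and 0.943 RPKM, Sprr1a at 0 and 0.632, Cdsn at 0.142 and 0.592 and Lor (loricrin) at 0 and 0.127. Of these, Tgm3 alone was lower in the transgenic library (0.392 and 0.377 RPKM). Of 10 hair follicle regulators, 4 were kept, with a summed level of 101 to 107 RPKM in wildtype and 73.7 to 75.6 RPKM in transgenic columns for the whole list. Lef1, a Wnt effector, was at 1.67 and 18.4 RPKM, a change of 2.86 with library sizes and 1.87 with size factors. Vdr, the vitamin D receptor, was at 71.1 and 10.3 RPKM, a change of -2.68 and -3.84. The members not kept were low, from Sox21 (0 and 0.0075 RPKM) to Msx2 (0.524 and 1.75 RPKM), with Hoxc13 at 0.116 and 0 RPKM.

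Markers of luminal cells moved in both directions beside the keratins. Of 12 luminal genes 10 were kept, 4 were higher (the tight junction genes Cldn4, 4.99, and Cldn3, 2.65, and the transcription factors Foxa1, 3.84, and Elf3, 2.45) and 1 was lower (Muc1, a mucin of the luminal surface, -4.59), beside 16.1% and 1.23% of all genes kept. With size factors 2 were higher (Cldn4 and Foxa1) and 1 was lower, beside 4.17% and 3.66% of all genes kept. The median was then 0.048 in place of 1.23. The list had a summed level of 189 to 196 RPKM in wildtype and 218 to 219 RPKM in transgenic columns. Markers of other cell types were higher too, where 16.1% of all genes kept were. Adipocyte genes passed the rule in 10 of 11 (374 to 389 RPKM summed in wildtype, 2312 to 2334 RPKM in transgenic columns), B cell genes in 9 of 10 (8.53 to 10.9 and 253 to 258 RPKM), T cell genes in 9 of 10 (11.1 to 13.1 and 271 to 286 RPKM), macrophage genes in 8 of 9 (25.9 to 34.1 and 378 to 381 RPKM) and fibroblast genes in 7 of 10 (80.9 to 83.2 and 1269.5 to 1274 RPKM), each with 0 lower. With size factors these counts were 7, 8, 8, 4 and 5, where 4.17% of all genes kept were higher. No member of these lists was at 0 in either library. The part of these cell types in the keratin differences was not tested, beyond the scale centered on the epithelial reference list given above.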

How the data were processed

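RNA of mammary tissue slides at lactation day 2 was measured by single-read sequencing after ribosomal RNA depletion. The authors aligned reads with TopHat2 (2.0.7, GRCm38, per the submitters' processing notes) and deposited RPKM per gene, made with SAMMate and Ensembl gene models, with no composition factor. Columns with the authors' own mean levels and log2 differences between genotypes were left out. DESeq2, also named in those notes, was not run here.

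Whole reads and depths were recovered from the RPKM steps (tolerance 0.0001 reads at reference lengths, 8699 genes). Where a keratin's length was not that of the reference, the smallest whole reads at lengths of 300 to 20000 bases were taken. The 6 columns were mapped to samples by title. The chi-square of reads used genes with at least 15 reads. As columns of a genotype behaved as 1 library, the limma test planned for separate columns was not run. Genes averaging 2 RPKM or more in a genotype were instead called by size, where log2(RPKM + 1) differed by more than 2. Such changes understate those of low genes. Read ratios have 95% Clopper-Pearson intervals and shares Wilson intervals, for counting error only. Size factors were medians of ratios over 12677 genes with reads in every column.

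Every keratin kept is named with each column, others with at least 10 reads in either genotype with reads, and up to 4 genes of each other list. Further genes, including those listed at 0, were named after their values were seen. Members and lists were chosen with earlier results of these data known. Scaling, pseudocount (0.1 or 3), filter (none or 5 RPKM) and left-out columns were varied. Scripts (Python 3.11.15, NumPy 2.4.6, SciPy 1.17.1, pandas 2.3.3, matplotlib 3.10.9) were tested on simulated data.

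The upstream window of Krt8 is not reported here.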

Additional observations from a re-analysis of the deposited data

How the results depend on the processing

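With library sizes 6 keratins were higher, and the count was 1 with size factors or a trimmed mean of ratios, 3 without the milk protein list in the library total and 3 centered on the epithelial reference list. The count was 6 with a pseudocount of 0.1 RPKM, 4 with 3 RPKM, 6 with no filter and 5 with a filter of 5 RPKM, and it was 5 to 6 with 1 column left out. No keratin was lower under any of these settings. As columns of a genotype are reads of 1 library, leaving 1 out varies little beyond counting error and cannot show dependence on an animal. The median change of 2.01 was 1.06 with size factors, 1.07 with a trimmed mean of ratios, 1.39 without milk proteins and 1.57 on the epithelial scale. It was 2.50 and 1.44 with pseudocounts of 0.1 and 3 RPKM, 0.17 with no filter, which adds keratins with few reads, 2.26 with a filter of 5 RPKM, and 1.97 to 2.22 with 1 column left out. Direction was reversed for Krt17 (-0.18 with size factors, -0.16 with a trimmed mean). Krt14 was near 0 with size factors (-0.0066) and with a trimmed mean (0.010), and at -0.53 centered on the desmosome list. Relative to the epithelial list the median of 1.57 was 0.60 with the desmosome list in its place and 1.94 with a pseudocount of 0.1 RPKM. The wildtype keratin share of 0.0148% was 0.0259% of the reads outside the milk protein list, while the transgenic share was 0.0737%. With 1 column left out, shares ran from 0.0144% to 0.0150% in wildtype and from 0.0729% to 0.0739% in transgenic mice. Ratios then ran from 0.691 to 0.803 and 0.803 to 0.820 for Krt8 to Krt18, from 0.884 to 1.14 and 2.80 to 2.83 for Krt5 to Krt14, and from 2.02 to 2.44 and 7.34 to 7.69 for Krt8 to Krt14, wildtype first. No paired analysis was possible because the columns of a genotype were 1 library and no test was run. Depth limits the wildtype library most, where only 22 of 51 keratins had any reads. Apart from these scalings, the cause of a moved value was not tested.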

Other observations

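The list of hormone-sensing luminal genes, which the comparison of keratins does not use, had 9 of 9 genes kept. By the size rule 3 were higher in the transgenic library and 0 were lower, beside 16.1% and 1.23% of all genes kept, and the median change was 1.28 with library sizes and 0.38 with size factors. Foxa1, a transcription factor that opens chromatin for the estrogen receptor, was at 0.1197 RPKM in the wildtype library and at 14.99 RPKM in the transgenic one, Cited1, a co-activator of that receptor, was at 1.33 and 19.3 RPKM, and Tbx3, a T-box factor of hormone-responsive cells, was at 0.778 and 11.1 RPKM. The receptor gene Esr1 itself was at 5.22 and 4.79 RPKM and the progesterone receptor gene Pgr at 0.435 and 2.00 RPKM. With size factors 2 genes of the list were higher and 1 was lower (S100a6, at -2.42 on the log2 scale), beside 4.17% and 3.66% of all genes kept.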
